A study of Mus musculus with 6 samples.

Results

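The genes described here are 7 genes of mast cells and basophils: Mcpt8, Cpa3, Ms4a2, Fcer1a, Gata2, Hdc and Kit. They were taken as every non-control probe set listed with one of these symbols alone, which gave 11 probe sets of the 45037 on the array, and 7 genes of the 18193 named. The RNA came from bone marrow cells of C57BL/6 mice, grown with interleukin-7 and fetal bovine serum. One group of 3 arrays carried cells of mice without the clock repressor genes Cry1 and Cry2 (Cry 1/2 double KO, here DKO 1 to DKO 3). The other 3 arrays carried wild type cells from the same strain and culture conditions (WT 1 to WT 3). The labels give no age, sex, time of day or length of culture, and no sorting of the cells, so every value is a sum over the cell types in the dish. Whether arrays of 1 genotype came from separate animals or cultures is not given, so the p-values reflect spread among these samples alone, and that spread may be technical.

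Mast cells and basophils are the granulated cells that carry the high-affinity receptor for immunoglobulin E. Antigen that cross-links this receptor releases stored histamine and proteases and starts the making of lipid mediators and cytokines. Both lineages depend on the transcription factor GATA2 and arise from bone marrow progenitors. Mast cells keep the stem cell factor receptor KIT, which mature basophils lose, while Mcpt8 marks basophils in the mouse. Interleukin-7 is a growth factor of early B lineage cells, and Kit is also carried by multipotent progenitors and early B lineage cells.

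The start regions of Cpa3, Ms4a2 and Fcer1a are shown because these genes were high on DKO 1 and DKO 2 and low on DKO 3, and because their windows hold letters that GATA factors are known to bind. Each window runs from 250 bases before to 50 bases after the annotated start in RefSeq (GRCm38.p6), is written 5′ to 3′ along the gene, and lies on the minus strand, at chr3:20242132-20242431 for Cpa3, chr19:11623670-11623969 for Ms4a2 and chr1:173227180-173227479 for Fcer1a. Capitals mark the motif AGATAA and its variants, which are AGATAG, also TGATAA and lastly TGATAG, searched on both strands.
Cpa3: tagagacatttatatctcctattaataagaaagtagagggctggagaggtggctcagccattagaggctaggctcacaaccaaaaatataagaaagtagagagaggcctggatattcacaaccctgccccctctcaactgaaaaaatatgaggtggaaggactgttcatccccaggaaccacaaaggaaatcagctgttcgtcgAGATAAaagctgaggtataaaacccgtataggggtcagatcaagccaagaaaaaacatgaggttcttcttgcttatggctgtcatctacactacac
Ms4a2: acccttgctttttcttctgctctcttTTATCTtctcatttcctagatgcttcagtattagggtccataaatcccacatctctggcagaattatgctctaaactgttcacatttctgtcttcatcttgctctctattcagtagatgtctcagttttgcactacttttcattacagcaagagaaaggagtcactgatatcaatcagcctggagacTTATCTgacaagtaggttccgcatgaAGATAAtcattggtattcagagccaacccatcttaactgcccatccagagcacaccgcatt
Fcer1a: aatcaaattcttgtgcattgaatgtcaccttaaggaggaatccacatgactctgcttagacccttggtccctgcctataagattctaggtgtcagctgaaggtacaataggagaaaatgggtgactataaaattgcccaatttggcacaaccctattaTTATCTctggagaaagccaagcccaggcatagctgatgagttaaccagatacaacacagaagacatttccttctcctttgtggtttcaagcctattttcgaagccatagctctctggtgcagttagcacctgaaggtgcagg

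The Cpa3 window held AGATAA with its first base at -46 from the start. The Ms4a2 window held 3 matches, AGATAA at -11 and its reverse complement TTATCT at -37 and -224, and the Fcer1a window held TTATCT at -92. All 7 genes matched the promoter table, with 9 windows, of which those of Kit overlap almost fully. Among these 9 windows, 4 held at least 1 match, the other one being that of Hdc with TGATAG at -221, against 29.8% of the 32851 windows of the same length in the table. The windows of Mcpt8, Gata2 and Kit did not hold these letters, which says nothing of the factor at other places. The E-box CACGTG, the sequence at which the clock activators that CRY proteins repress are known to bind, was in 0 of the 9 windows, against 7.15% of all windows. So few windows cannot set the members apart from these shares. A match of letters is a description and not a measured binding site.

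Signals below are the deposited linear intensities, and log2 differences are of log2(signal + 16) after each array was centred on its median, knockout minus wild type. The median signal was 44.0 to 55.3 on 5 arrays and 115 on WT 2. WT 2 also had a 3′ to 5′ signal ratio of 824 for Actb and 132 for Gapdh, against at most 2.05 and 1.72 on the others, and a mean correlation with the other arrays of 0.840, against 0.940 to 0.945. WT 2 is given apart for these values, and DKO 3 because its granulocyte and T cell marker signals, given further on, were not those of DKO 1 and DKO 2; both choices were made with the values known. The Cry1 signal was 359, 399 and 545 on DKO 1 to DKO 3 and 1533, 1502 and 955 on WT 1 to WT 3, a log2 difference of -1.26 (SE 0.46), which limma did not call (adjusted p = 0.822). The Cry2 difference was 0.70 (adjusted p = 0.822 by limma). Where the Cry probe sets lie relative to the deleted parts is not given, so these values do not check the labels fully.

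Mcpt8, Cpa3, Ms4a2, Fcer1a and Gata2 had centred values above every wild type array on DKO 1 and DKO 2, while DKO 3 exceeded them for none of these 5 genes (brightest probe set of each). Hdc and Kit did not share this. Taking for each gene its brightest probe set, the summed signal was 2439 on DKO 1, 2142 on DKO 2 and 323 on DKO 3, against 1391, 1013 and 346 on WT 1 to WT 3. The sum on DKO 3 was below that of each wild type array, and those on DKO 1 and DKO 2 above. Kit is the brightest member and makes up much of these sums, with 905.7 on WT 1 and 988.6 on DKO 2. The lower sum on DKO 3 than on WT 3 came from Kit (86.3 against 160.2), and without Kit that order was reversed. Mcpt8, Gata2 and Hdc were brighter on DKO 3 than on WT 3, while Cpa3, Ms4a2 and Fcer1a were dimmer. In bulk samples such as these, fewer cells of a type and less RNA per cell cannot be told apart.

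**Figure D1:**
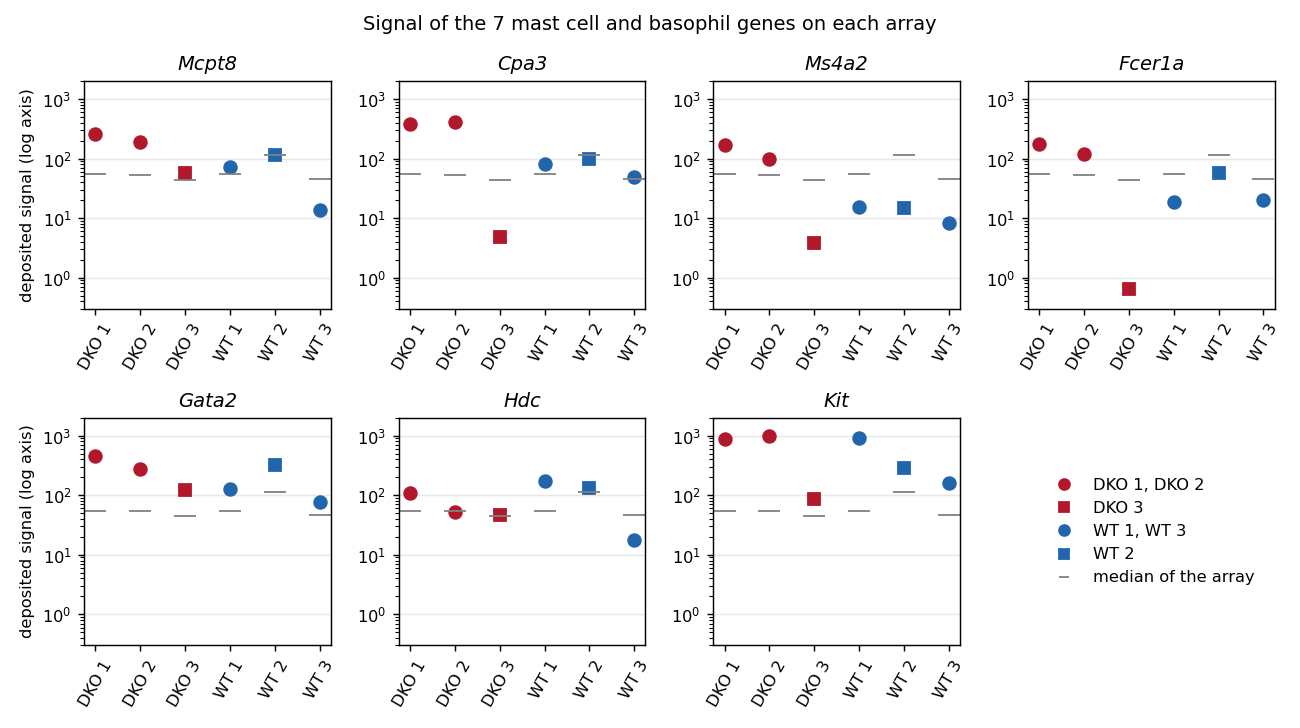
Deposited signal of the brightest probe set of each of the 7 genes on each of the 6 arrays (log axis); knockout arrays are red, wild type arrays blue, DKO 3 and WT 2 are squares, and grey dashes are the median signal of that array. Cpa3, Ms4a2 and Fcer1a are highest on DKO 1 and DKO 2, while DKO 3 lies below all wild type arrays in signal. After centring, DKO 3 is within the wild type range for Ms4a2. Kit is as bright on WT 1 (905.7) as on DKO 1 (891.5).

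Mcpt8, on chromosome 14, encodes mast cell protease 8, a granule protease of basophils. Its signal (1449965_at) was 253.9, 188.2 and 57.7 on DKO 1 to DKO 3 and 71.1, 114.6 and 13.7 on WT 1 to WT 3. DKO 1 and DKO 2 were above every wild type array and DKO 3 lay within their range, so the groups overlapped. After centring, DKO averaged 7.47 ± 0.85 and WT 5.97 ± 0.72 (log2, SD, n = 3 each). The log2 difference was 1.51 (SE 0.54), with an unadjusted p of 0.0259 and an adjusted p of 0.822 by limma over all 27022 probe sets tested. Mcpt8 was the 1 probe set of the 7 tested with an unadjusted p under 0.05 and a higher knockout mean, where 1.81% of all probe sets tested had one. On WT 2 and WT 3 it was dimmer than the median probe set of its array.

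Cpa3, on chromosome 3, encodes carboxypeptidase A3, a protease stored in mast cell granules that basophils and their progenitors also express. Its signal (1448730_at) was 381.6, 417.2 and 4.81 on DKO 1 to DKO 3 and 81.8, 97.3 and 48.9 on WT 1 to WT 3. DKO 1 and DKO 2 stood above all wild type arrays, and DKO 3 stood below all of them. Relative to the wild type mean, the centred log2 value was 2.37 on DKO 1, 2.52 on DKO 2 and -1.64 on DKO 3. The wild type arrays themselves had an SD of 0.35 and the knockout arrays one of 2.36 (log2, n = 3 each). The mean difference of 1.08 (SE 1.06) was not called (adjusted p = 0.822 by limma). Cpa3 had the widest spread among knockout arrays of the 7 brightest probe sets.

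The alpha and beta chain genes of the immunoglobulin E receptor were also high on DKO 1 and DKO 2. Fcer1a, on chromosome 1, encodes the alpha chain, which binds the antibody. Its signal (1421775_at) was 176.9, 118.0 and 0.638 on DKO 1 to DKO 3 and 18.6, 56.1 and 20.5 on WT 1 to WT 3. It was above the array median only on DKO 1 and DKO 2, and the value on DKO 3 was the lowest of any member on any array. The centred wild type values lay close together, at 5.33 ± 0.13 (log2, SD, n = 3), while the knockout values had an SD of 1.77. DKO 1 and DKO 2 were 2.32 and 1.82 above the wild type mean and DKO 3 was at -0.97 from it. The mean difference was 1.06 (SE 0.80, adjusted p = 0.822 by limma).

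Ms4a2, on chromosome 19, encodes the beta chain, which amplifies the receptor's signal. Its brighter probe set (1443264_at) gave 168.7, 96.6 and 3.80 on DKO 1 to DKO 3 and 15.5, 14.6 and 8.11 on WT 1 to WT 3. DKO 1 and DKO 2 were above every wild type array after centring, at 2.91 and 2.23 from the wild type mean, and DKO 3 was within the wild type range at -0.06. This probe set was below the array median on DKO 3 and on all wild type arrays, and its mean was under the limit for testing. Without that limit its difference was 1.70 (SE 0.71, unadjusted p = 0.0430, adjusted p = 0.873 by limma). The other Ms4a2 probe set (1421475_at) had signals of 1.49 to 23.5, was below the array median on all 6 arrays, and was not tested.

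Fcer1g, which is no member and was singled out after its values were seen, encodes the receptor's gamma chain, which many other myeloid cells share. Its signal was 615.7, 403.4 and 1287 on DKO 1 to DKO 3 and 3492, 1864 and 592.9 on WT 1 to WT 3. DKO 3 was the highest knockout array, and the difference was -0.87 (SE 0.76, adjusted p = 0.822 by limma), a sign opposite to that of Fcer1a and Ms4a2.

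Gata2, on chromosome 6, encodes the transcription factor that both lineages need. Its brighter probe set (1450333_a_at) gave 458.0, 280.7 and 122.8 on DKO 1 to DKO 3 and 127.1, 316.8 and 76.9 on WT 1 to WT 3. It was above the array median on all 6 arrays. The uncentred signal on WT 2 exceeded that on DKO 2, but after centring WT 2 was at 7.56 and DKO 2 at 8.31 (log2). DKO 3, at 7.43, lay within the wild type range of 6.80 to 7.56. The difference was 1.03 (SE 0.46, unadjusted p = 0.0608, adjusted p = 0.822 by limma). The other Gata2 probe set (1428816_a_at), dimmer than the array median on all arrays but DKO 1 and not tested, gave 104.7, 44.8 and 1.63 against 36.2, 36.3 and 5.29, with a difference of 0.70.

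Hdc and Kit did not share this pattern fully. Hdc, on chromosome 2, encodes histidine decarboxylase, the enzyme that makes histamine, and is also expressed in other myeloid cells. Its brighter probe set (1454713_s_at) gave 108.1, 52.4 and 47.2 on DKO 1 to DKO 3 and 171.2, 130.3 and 17.8 on WT 1 to WT 3. All knockout arrays lay within the wild type range, and the difference of 0.05 (SE 0.58, adjusted p = 0.980 by limma) changed sign under other ways of scaling, to -0.26 without centring. The other Hdc probe set (1451796_s_at) was below the array median on all 6 arrays, with signals of 3.45 to 66.3 and a difference of -0.86, so the 2 probe sets of Hdc did not point the same way.

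Kit, on chromosome 5, gave opposite signs on its 2 probe sets. The brighter one (1452514_a_at) gave 891.5, 988.6 and 86.3 on DKO 1 to DKO 3 and 905.7, 282.9 and 160.2 on WT 1 to WT 3. WT 1 was about as high as DKO 1, DKO 2 was above every wild type array, and DKO 3 was lowest of all. The difference was 0.63 (SE 1.01, adjusted p = 0.852 by limma). The dimmer one (1415900_a_at) gave 32.3, 62.7 and 4.89 against 70.5, 91.2 and 18.8, with a difference of -0.36 (SE 0.50, adjusted p = 0.836 by limma). DKO 3 was below every wild type array on both, which is the one feature that both Kit probe sets shared with Cpa3 and Fcer1a.

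Counted over all 11 probe sets, 9 had a higher mean in the knockout group, where 61.0% of all 45037 non-control probe sets did. A log2 difference of at least 1 in the knockout direction was seen in 5 of the 11, where 7.34% of all probe sets had one. The groups did not overlap for 0 of the 11, where they did not overlap for 9.66% of all probe sets. DKO 1 was above every wild type array on 7 of the 11 (22.5% of all probe sets), and DKO 2 on 7 (22.8%). DKO 3 was above every wild type array on 1 (31.7%) and below every wild type array on 5 (13.5%). The 5 with a difference of at least 1 were those of Mcpt8, Cpa3 and Fcer1a and the brighter ones of Ms4a2 and Gata2; on each of them DKO 3 was the lowest knockout array. Members share the same 6 arrays, so these counts are not independent of each other. The members were also chosen with earlier results of these data known. Counts above the share of all probe sets may have been favoured by that choice and are a description alone. Of the 7 probe sets tested, covering 6 genes, limma called 0 at an adjusted p under 0.05, where it called 0.0074% of all probe sets higher.

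**Figure D2:**
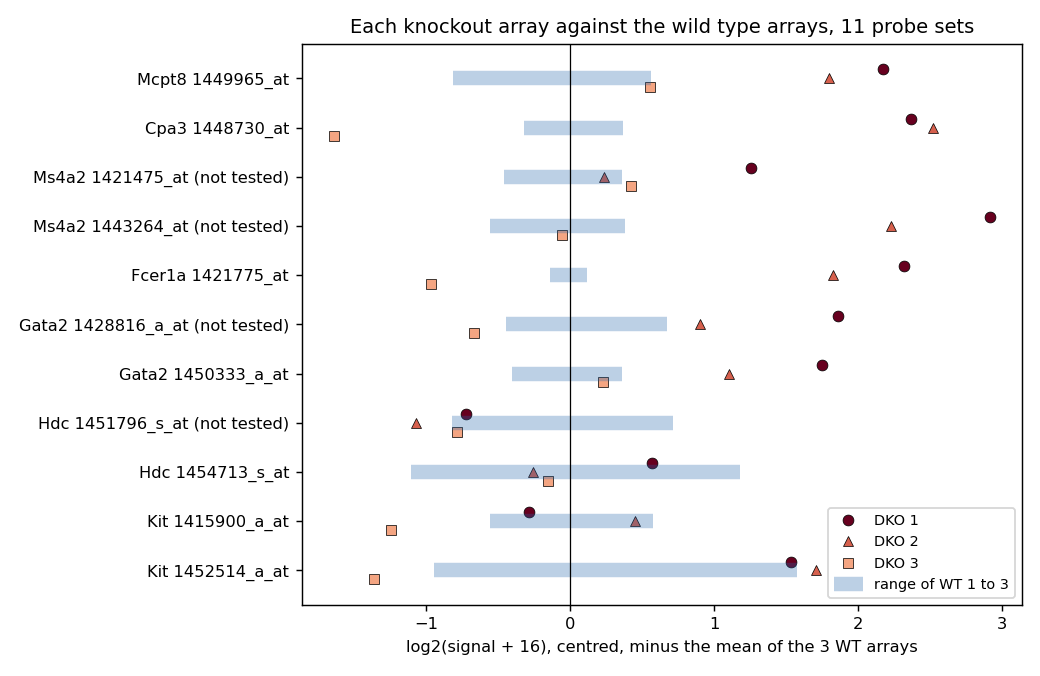
Centred log2(signal + 16) of each knockout array minus the mean of the 3 wild type arrays, for all 11 probe sets; points are single arrays and blue bars span the wild type arrays. DKO 1 and DKO 2 lie right of the bar for Mcpt8, Cpa3, Fcer1a, both Gata2 probe sets and the brighter Ms4a2 probe set, and DKO 3 lies left of it for Cpa3 (-1.64), Fcer1a (-0.97), both Kit probe sets and 1 of Gata2.

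Leaving out DKO 3 and WT 2 together left 2 arrays a group. Mcpt8 (log2 difference 2.11, adjusted p = 0.0433 by limma), Cpa3 (2.29, 0.00686), Fcer1a (2.08, 0.0155) and Gata2 (1.61, 0.0343) then passed the threshold, 4 of the 7 probe sets tested, where 2.31% of all those tested were called higher. Hdc and Kit did not pass. These p-values rest on arrays chosen after their values were seen and on an assumed equal spread of the arrays, so they are a description of DKO 1 and DKO 2 against WT 1 and WT 3. Fcer1a was above the array median only on DKO 1 and DKO 2, the knockout arrays kept here. It entered the test through those high values, so its call and its place in the count of 4 were favoured beforehand. Calls in this setting were not particular to the members. Of the marker lists given further on, 5 of 10 T and NK genes were called higher and 11 of 12 granulocyte genes lower. With DKO 3 alone left out the differences were 1.99 for Mcpt8, 2.45 for Cpa3, 2.07 for Fcer1a and 1.43 for Gata2, and 0 of the 7 were called by limma (lowest adjusted p of these genes 0.258). With array weights, a fit that stopped before it converged, limma called 5 of the 7 in either direction, where it called 30.1% of all those tested. Those were the same 4 genes, higher, and Hdc, which was lower (-1.21, adjusted p = 0.0184). The weight was 30.85 for WT 1, 0.0526 for WT 2 and 0.479 for WT 3, so WT 1 dominated the wild type side of that fit. WT 1 was the array with the highest Hdc signal (171.2).

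**Figure D3:**
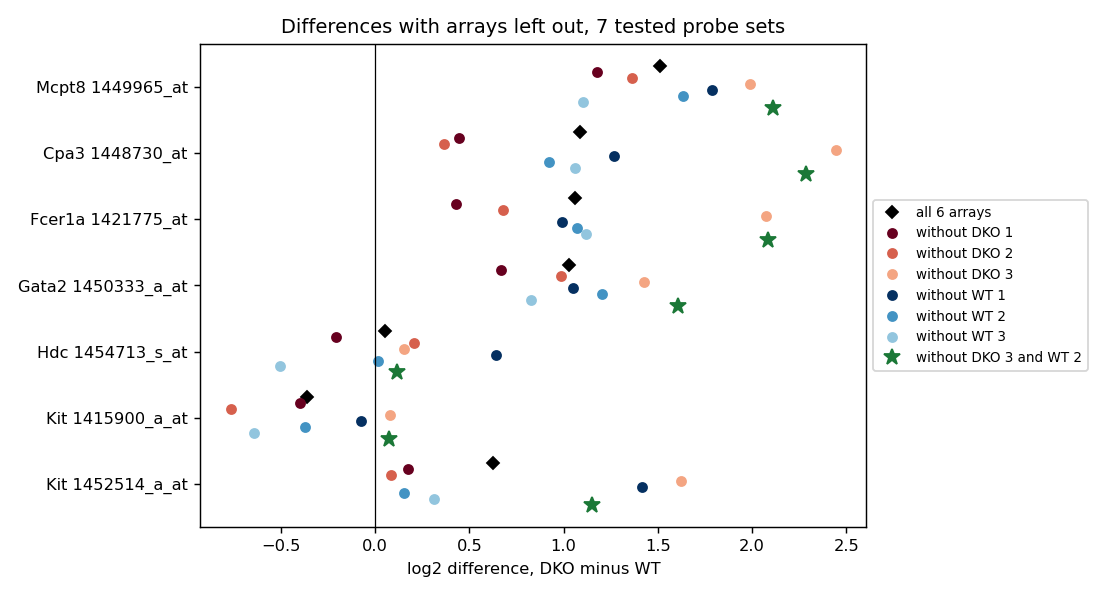
Log2 difference (knockout minus wild type) of the 7 tested probe sets with all 6 arrays (diamonds), with each array left out in turn (circles) and without DKO 3 and WT 2 (stars). Mcpt8, Cpa3, Fcer1a and Gata2 stay above 0 in each of these settings, from 0.37 for Cpa3 without DKO 2 to 2.45 without DKO 3; Hdc and the dimmer Kit probe set lie on both sides of 0.

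Genes that act with the members were taken from lists of receptor signalling, granule contents, mediators, receptors and transcription factors, with 1 probe set a gene, and none of them was called by limma in either direction at an adjusted p under 0.05. The median difference of all 27022 probe sets tested was 0.21, and it was -0.02 without WT 2. A higher knockout mean was seen in 61.0% of all 45037 non-control probe sets, tested or not. Of 26 genes of immunoglobulin E receptor signalling tested, 19 had a higher knockout mean, with a median difference of 0.43 that became -0.08 without WT 2. The 2 with the smallest p were Plcg1, a phospholipase (2.06), and Lat, the adaptor that links the receptor to it (2.51), both adjusted p = 0.822. The Lat signal was 5235, 4020 and 183 on DKO 1 to DKO 3 and 593, 347 and 183 on WT 1 to WT 3. DKO 1 and DKO 2 were above every wild type array and DKO 3 was within the wild type range; T cells and pro-B cells are also known to express Lat.

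Of the genes of granule proteases and other granule contents, 5 of the 12 with a probe set were tested, and 3 had a higher knockout mean (median 0.92, or 0.31 without WT 2). Mcpt2, a mast cell chymase, gave 111.7, 60.1 and 35.4 on DKO 1 to DKO 3 and 21.3, 39.1 and 22.2 on WT 1 to WT 3, with a difference of 1.20 (SE 0.36, unadjusted p = 0.0112, adjusted p = 0.822 by limma). Gzmb, a cytotoxic granule protease also made by mast cells, gave 1.39 (adjusted p = 0.822). The connective tissue mast cell protease genes Mcpt4, Tpsb2 and Tpsab1 were among those under the limit for testing, with signals of 1.69 to 19.1 for Mcpt4, 7.31 to 86.7 for Tpsb2 and 23.0 to 59.7 for Tpsab1. These 3 names were chosen after their values were seen, as defining genes of mature mast cells. Their signals were below the array median on every array, so the label of mast cells rests on the members and not on these 3 proteases. Cma1, a protease gene of the same list that was also not tested, did not go with these 3. Its signal was 46.1, 106.1 and 4.34 on DKO 1 to DKO 3 and 3.05, 78.25 and 31.1 on WT 1 to WT 3. After centring, DKO 1 (6.02) and DKO 2 (7.02) were above every wild type array (highest 5.82, log2), and DKO 3 (4.66) was within their range.

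Of the enzymes and receptors of lipid mediators and histamine, 11 were tested and 6 had a higher knockout mean (median 0.03, or 0.17 without WT 2). The smallest p were those of Pla2g4a (1.17), which releases arachidonic acid, and the histamine receptor gene Hrh2 (0.76). Of the cytokines and surface receptors, 13 were tested and 8 had a higher mean (median 0.03, or 0.09 without WT 2), led by Il3ra (0.79), the receptor of a growth factor of both lineages, and Cd69 (1.26), an activation marker. Of the transcription factors, 22 were tested and 17 had a higher mean, with a median of 0.58 that was 0.11 without WT 2, led by Ikzf2 (0.71) and Lyl1 (0.99). All 6 genes had an adjusted p of 0.822.

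Markers of other cell types moved across the same arrays. The 12 granulocyte markers tested all had a lower knockout mean, with a median difference of -2.97 and none called with all 6 arrays. Their summed signal was 609 on DKO 1, 599 on DKO 2, 27817 on DKO 3 and 19297 to 179220 on the wild type arrays, so they were low where the members were high. The calgranulins S100a8 (-4.84) and S100a9 (-4.97) led that list. Of 12 macrophage markers 11 had a lower mean (median -0.66), led by Csf1r (-2.04) and Tyrobp (-1.97). The part of these markers in the members' differences was not tested.

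Some T and NK cell markers ran with the members. Of 10 tested, 7 had a higher knockout mean (median 0.68, or 0.93 without WT 2). The other 3 were lower, Cd8a (-0.45), Ncr1 (-0.22) and Rora (-0.10). The summed signal of the list was 4369 on DKO 1, 3136 on DKO 2, 870 on DKO 3 and 682 to 2492 on the wild type arrays. Thy1 alone made up much of these sums, with 3389 on DKO 1, 1617 on DKO 2 and 1182 on WT 2. The T cell receptor component Cd3d gave a difference of 2.34 and the NK receptor Klrd1 1.65, both adjusted p = 0.822 by limma. Cd3d was dim, at 7.90 to 14.0, on DKO 3 and the wild type arrays. Of 15 pro-B and pre-B markers 10 had a higher mean (median 0.38, or 0.15 without WT 2), with Dntt at 2.17 and Blnk at 1.18. The part of these cells in the members' values was not tested.

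The remaining lists had smaller medians, except the dendritic one. Of 9 progenitor markers 7 were higher (median 0.34, -0.06 without WT 2), led by Cd93 (1.5) and Slamf1 (0.54). Of 9 dendritic markers 7 were higher (median 0.73, 0.18 without WT 2), led by Itgax (1.06) and Batf3 (1.09). Of 10 erythroid and megakaryocyte markers 7 were higher with all arrays (median 0.11) and 5 without WT 2 (median -0.06), although the platelet chemokines Ppbp (-2.03) and Pf4 (-1.96) had the smallest p. Of 7 stromal markers 4 were higher (median 0.07, or 0.14 without WT 2), led by Vcam1 (0.64) and Pecam1 (0.96). Only 2 eosinophil markers were bright enough to test, Il5ra (0.43) and Prg2 (-0.12), with a median of 0.16 that was -0.19 without WT 2, and the summed signal of that list was 132 to 167 on the knockout arrays and 155 to 247 on the wild type arrays.

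**Figure D4:**
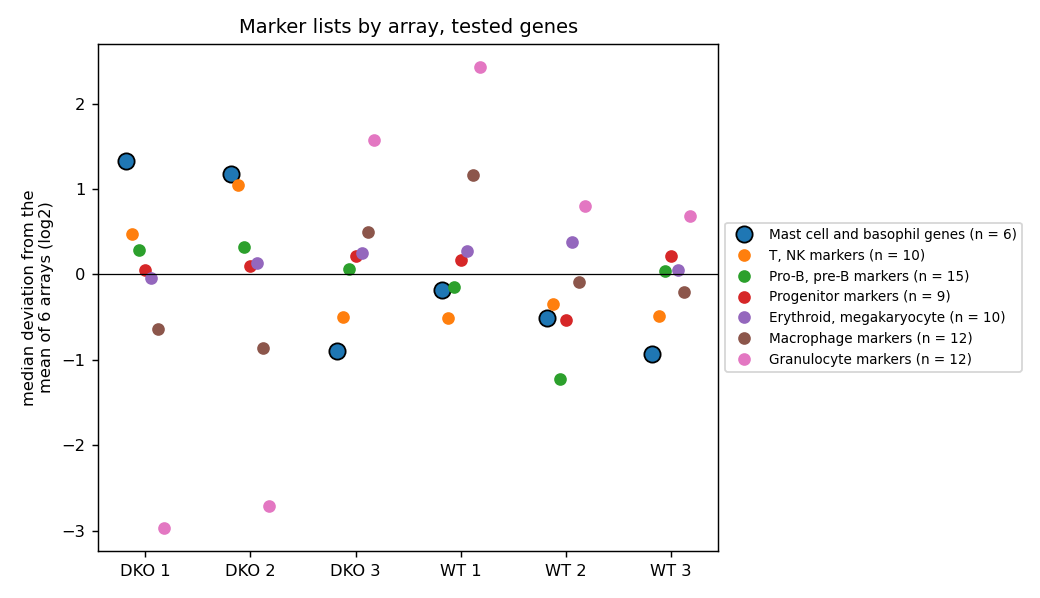
Median over the tested genes of each list of the deviation from the mean of the 6 arrays (log2), by array, for the 6 tested mast cell and basophil genes and 6 lists of other cells. The members are high on DKO 1 (1.33) and DKO 2 (1.17) and low on DKO 3 (-0.89), while granulocyte markers are low on DKO 1 (-2.97) and DKO 2 (-2.71) and high on DKO 3 (1.57) and WT 1 (2.43).

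Genes with the pattern most like that of each tested member were found by Pearson r of centred log2 values over the 6 arrays, among 12621 genes. With 6 points and that many genes, high values of r are common. For the members other than Hdc and Kit, the points also share the split of DKO 1 and DKO 2 from the rest. Mcpt8 was nearest to Tmcc2 (0.983) and Ikbip (0.983), and Cpa3 to Lpin1 (0.993) and Gnai1 (0.991). Fcer1a was nearest to AI429214 (0.995) and Mrgpre (0.994), and Gata2 to Cep19 (0.998) and Thy1 (0.997), a T cell and progenitor surface marker with signals of 3389, 1617 and 490 on DKO 1 to DKO 3 and 504, 1182 and 276 on WT 1 to WT 3. Hdc was nearest to the chemokine Ccl3 (0.979) and Gca (0.975), and Kit to the histone gene H1f2 (0.988) and Tns3 (0.988). No gene was among the nearest of more than 1 member. Without WT 2 these r were 0.977 to 0.999. No gene named here is implied to share a function or control with the member beside it.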

How the data were processed

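Total RNA of 6 bone marrow cell samples was biotin-labelled and measured on 6 arrays, per the labels. The authors deposited linear intensity, 1 value a probe set and array, from MAS5 (submitters' processing notes). Its version, detection calls, the genome build and scan batches were not stated in these sources. The mean without the top and bottom 2% was 500 on each array. Of 45101 probe sets, 64 controls were left out.

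Values were taken as log2(intensity + 16), a pseudocount that moves differences of dim probe sets either way, and centred on each array's median. The 27022 probe sets whose mean exceeded percentile 40 entered the test, limma 3.58.1 in R 4.3.3 (lmFit, eBayes with trend, two-sided, Benjamini-Hochberg over all tested, threshold 0.05). The script was tested on simulated data. The number of arrays limits the precision.

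Members and lists were chosen with earlier results of these data known. Named were all member probe sets, the 2 genes of smallest p on each of 14 lists (240 genes) where none was called, and the 2 genes of highest r with each tested member. Symbols came from the platform annotation and promoters from RefSeq. Alternatives changed the centring, pseudocount, filter, variance, weights, replicate block and arrays used.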

Additional observations from a re-analysis of the deposited data

How the results depend on the processing

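With 3 arrays a group and knockout arrays that differ among themselves, a count of calls is a weak measure here. limma called 2 probe sets in all, and 0 with quantile normalization, no centring, centring on the tested probe sets, pseudocount 1 or the replicate block. It called 1 with the filter at percentile 60 or robust variance, 8129 with array weights, 1099 without DKO 3 and WT 2, and 0 to 7 with 1 array left out (7 without WT 2). Of the members 0 were called, except 5 with array weights (4 higher, and Hdc lower) and 4 without DKO 3 and WT 2. Of the related lists 0 genes were called, except 89 and 37 in those settings. With array weights, WT 1 outweighed all other arrays.

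The Hdc probe set 1454713_s_at changed from 0.05 to -0.26 with no centring, -0.24 with centring on the tested probe sets, -0.043 with pseudocount 64 and -1.21 with array weights, and ran from -0.50 to 0.64 with 1 array left out. Kit 1415900_a_at ran from -0.77 to 0.08 with 1 array left out and was 0.072 without DKO 3 and WT 2. Kit 1452514_a_at was -0.13 with array weights. The cause was not tested. The other member probe sets kept their sign in the alternatives run, though Fcer1a moved from 1.06 to 0.55 with pseudocount 1 and Gata2 1450333_a_at from 1.03 to 0.62 with quantile normalization. Of the member values with a test, 108 kept sign and side of the threshold, 8 kept the sign and passed the threshold only in the alternative, and 9 changed sign. The 60 values without a test kept their sign. Changing the filter, the variance settings or the replicate block leaves the difference itself unchanged. The sign was fixed beforehand in those alternatives, which are part of these counts. Whether the labels' replicate numbers pair the arrays is not given. The correlations of deviations between arrays of the same number were -0.15, -0.0019 and 0.33, which cannot decide it with 3 arrays a group.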
